A study of Mus musculus with 9 samples.

Results

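The comparison described here is that of pressure-overloaded hearts with sham-operated hearts, over the messenger RNAs. All rows of the table that holds both groups were taken, and the 12148 genes that encode a protein (12135 in the nucleus and 13 in the mitochondrion) were described, out of 13853 genes listed. The TAC group was C57BL/6 mice with transverse aortic constriction (TAC), a ligature that narrows the aortic arch. The sham group was C57BL/6 mice that went through the same surgery with no constriction. Per the methods of the study both groups were male and received saline by intraperitoneal injection, and hearts were taken 21 days after surgery at 10 weeks of age. Each group had 3 mice, and each of the 6 libraries was total RNA of heart tissue from 1 mouse. A further 3 libraries of the series, from mice that also received puerarin, were not used here.

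TAC raises the pressure against which the left ventricle ejects. In the mouse, the ventricular wall thickens within weeks, cardiomyocytes enlarge rather than divide, and the interstitium gains collagen. The response is known for the return of genes of the fetal ventricle (natriuretic peptides, skeletal actin, beta myosin), for a shift in fuel use away from fatty acids, and for changed calcium cycling through the sarcoplasmic reticulum.

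A short promoter motif known for genes of this kind was looked up. CATTCC is the core of the M-CAT element that TEAD factors bind in muscle genes. Promoters (250 bases before to 50 after the annotated start) came from RefSeq, build GRCm38.p6, matched by symbol, and both strands were searched. CATTCC or its complement lay in 5 of the 10 promoters found for the stress genes described below, and in 16.6% of 27025 genes. The 5 were those of Nppb, Myh7, Acta1, Gdf15 and Ankrd1, and Ankrd1 was not called higher in TAC hearts. A match is a run of letters, not a measured site. The promoters shown are those of 3 stress genes whose mRNAs rose, each 5′ to 3′ on the strand of the gene, with the matches in capitals (GGAATG is CATTCC on the other strand). They are Acta1 (chr8:123894726-123895025, minus strand, match starting at base -46 from the start), Nppb (chr4:147985650-147985949, plus strand, -105) and Myh7 (chr14:54994577-54994876, minus strand, -201).
Acta1: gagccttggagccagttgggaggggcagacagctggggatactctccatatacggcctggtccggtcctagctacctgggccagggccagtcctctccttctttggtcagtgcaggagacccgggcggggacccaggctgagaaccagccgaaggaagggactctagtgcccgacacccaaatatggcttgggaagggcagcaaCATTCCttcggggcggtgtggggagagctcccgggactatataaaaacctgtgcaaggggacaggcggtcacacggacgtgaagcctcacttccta
Nppb: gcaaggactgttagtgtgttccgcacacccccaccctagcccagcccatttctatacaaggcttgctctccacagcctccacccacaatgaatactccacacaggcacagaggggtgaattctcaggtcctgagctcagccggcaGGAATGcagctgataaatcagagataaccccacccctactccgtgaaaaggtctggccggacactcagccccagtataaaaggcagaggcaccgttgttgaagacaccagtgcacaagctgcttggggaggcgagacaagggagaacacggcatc
Myh7: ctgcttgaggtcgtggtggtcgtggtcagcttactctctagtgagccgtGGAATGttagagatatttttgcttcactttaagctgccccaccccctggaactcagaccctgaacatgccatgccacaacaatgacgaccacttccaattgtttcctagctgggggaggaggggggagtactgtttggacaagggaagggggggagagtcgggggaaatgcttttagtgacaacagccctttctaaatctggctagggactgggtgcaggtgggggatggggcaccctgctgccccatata

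Values are FPKM, fragments scaled to the length of the gene and to the total of the library, so a level is relative to the rest of the same library. The header of the table names FPKM, whereas the methods of the study speak of TPM, and the values were taken as the header names them (they sum to 187473 to 220617 in the TAC group, against 259491 to 287871 in the sham group). The depth is unknown, since no read numbers were used, and no counting interval is given. The libraries differed in composition by group. The 13 mitochondrial mRNAs took 2.81%, 5.28% and 7.04% of the summed FPKM in the TAC group, against 41.6%, 31.6% and 42.9% in the sham group. Gm26917 and Gm42418, transcripts that overlap ribosomal RNA sequence, took 7.50%, 4.93% and 4.81% in the TAC group, against 0.539%, 1.11% and 0.519% in the sham group. Since FPKM are relative, each result was also computed under 3 other scalings: median-ratio scaling, rescaling without Gm26917 and Gm42418, and rescaling without those and the mitochondrial genes. Defining markers of heart were high in every library, with Myh6 at 3983, 3114 and 3369 FPKM in the TAC group, against 2369, 2726 and 2418 FPKM in the sham group. Lymphocyte and lung markers were listed for 0 of 6 and 0 of 4 genes.

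**Figure D1:**
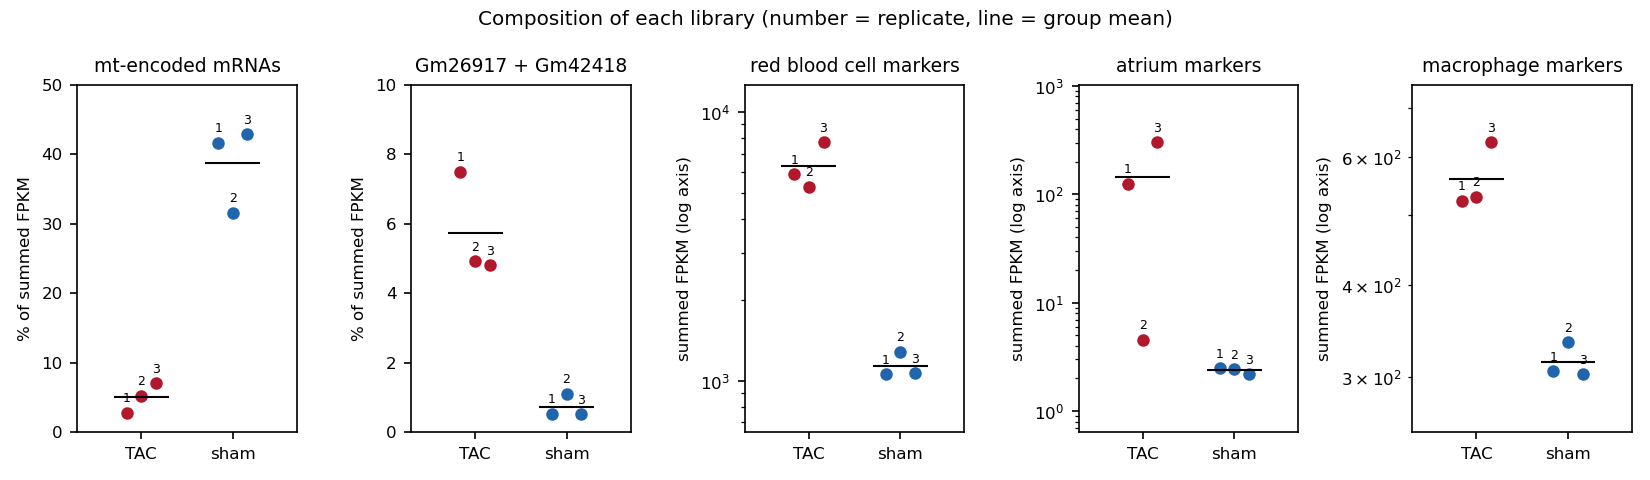
Composition of each library. The first 2 panels give the share (%) of summed FPKM of the mitochondrial mRNAs and of Gm26917 plus Gm42418, and the other 3 give the summed FPKM (log axis) of red blood cell, atrium and macrophage markers, with 1 point per heart, its replicate number and a line at the group mean. TAC and sham hearts do not overlap in any panel, and TAC replicate 2 lies near the sham hearts for the atrium markers only (4.56 against 2.18 to 2.49 FPKM).

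TAC hearts differed from sham hearts in most of the mRNAs measured. Of 10876 mRNAs with at least 1 FPKM in at least 3 libraries, 2801 were higher and 3961 lower in the TAC group (limma on log2(FPKM + 1), two-sided, Benjamini-Hochberg adjusted p under 0.05 over all 11687 genes tested), and 4114 did not pass. Over all genes tested, 63% were called, 25.3% higher and 37.7% lower, and these shares are the background for each gene list below. Counts near these shares do not set a list apart from other genes. Differences beyond 1 on the log2 scale were seen for 461 higher and 884 lower mRNAs. Groups did not overlap for 6633 of the called mRNAs and for 70.3% of all genes tested. The first count follows largely from the calls themselves, which rest on the same values. The split between directions moved with the scaling. With median-ratio scaling 4006 mRNAs were higher and 3663 lower (52.2% of calls higher, against 41.4% as deposited), without Gm26917 and Gm42418 5472 were higher and 2102 lower (72.3%), and without those and the mitochondrial genes 2520 were higher and 4991 lower (33.6%). Over all genes tested the shares called were 71% with median-ratio scaling (36.1% higher, 34.9% lower), 69.8% without Gm26917 and Gm42418 (49.2% and 20.6%) and 69.5% without those and the mitochondrial genes (22.7% and 46.9%). The median log2 difference over all genes was -0.12 as deposited and 0.02, 0.30 and -0.23 under these scalings. Called in the same direction under all 4 were 2515 higher and 2101 lower mRNAs (22.7% and 20.6% of all genes tested were so called), while 139 were called higher under 1 and lower under another. The lower count and share include the 13 mitochondrial mRNAs, which the last scaling leaves out and which were lower under the rest. The remaining 1272 mRNAs of the table were below the filter and were not tested.

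The genes of the fetal and stress programme were mostly higher in TAC hearts. Of 11 tested, 8 rose and 1 fell, with 2 not called, with a median log2 difference of 1.11 (0.85 to 1.38 over the 4 scalings), and 7 rose under every scaling. Nppa, which encodes atrial natriuretic peptide, was at 478, 587 and 621 FPKM in the TAC group, against 71.2, 74.9 and 70.4 FPKM in the sham group. All 3 TAC hearts were far above all sham hearts, with a log2 difference of 2.93 ± 0.14 (SE, adjusted p = 4.62e-06). Nppb, the gene of B-type natriuretic peptide, was at 222, 426 and 121 FPKM in the TAC group, against 80.1, 78.6 and 80.7 FPKM in the sham group, a log2 difference of 1.49 ± 0.34 (adjusted p = 0.0036). The TAC hearts spread widely for Nppb, with replicate 3 nearest to sham, while the sham hearts lay within 3 FPKM of each other. Acta1, skeletal alpha actin, was at 699.6, 1134 and 613 FPKM in the TAC group, against 157, 181 and 152 FPKM in the sham group (2.27 ± 0.21, adjusted p = 4.29e-05). Myh7, the slow beta myosin heavy chain, was at 209, 172 and 167 FPKM in the TAC group, against 103, 102 and 96.01 FPKM in the sham group (0.85 ± 0.13, adjusted p = 3.59e-04). Myh6, its fast alpha partner, also rose, by 0.47 (adjusted p = 0.041, close to the threshold), so both myosins were higher in FPKM as deposited. Of the 5 cardiomyocyte markers that rose as deposited, Myh6 among them, 4 rose under every scaling. Rcan1, a feedback inhibitor and target of calcineurin, was at 49.3, 81.6 and 40.9 FPKM in the TAC group, against 24.7, 26.3 and 23.6 FPKM in the sham group, and TAC replicate 2 was again the highest. The same heart was highest for Gdf15, a stress-induced cytokine, at 4.43 FPKM (log2 difference over the group 1.14 ± 0.29, adjusted p = 0.0061). Uchl1, a deubiquitinase, and Xirp1, an actin-binding protein of the intercalated disc, rose by 1.20 and 0.68. Xirp2, the related gene, fell by 1.26 on the log2 scale (adjusted p = 4.70e-04), with 40.4, 78.2 and 52.4 FPKM in the TAC group, against 137, 125 and 137 FPKM in the sham group. Ankrd1, a titin-binding stress protein, had 453, 703 and 347 FPKM in the TAC group, against 344, 341 and 348 FPKM in the sham group and did not pass (adjusted p = 0.085). Fhl1 did not pass either (-0.01, adjusted p = 0.97).

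**Figure D2:**
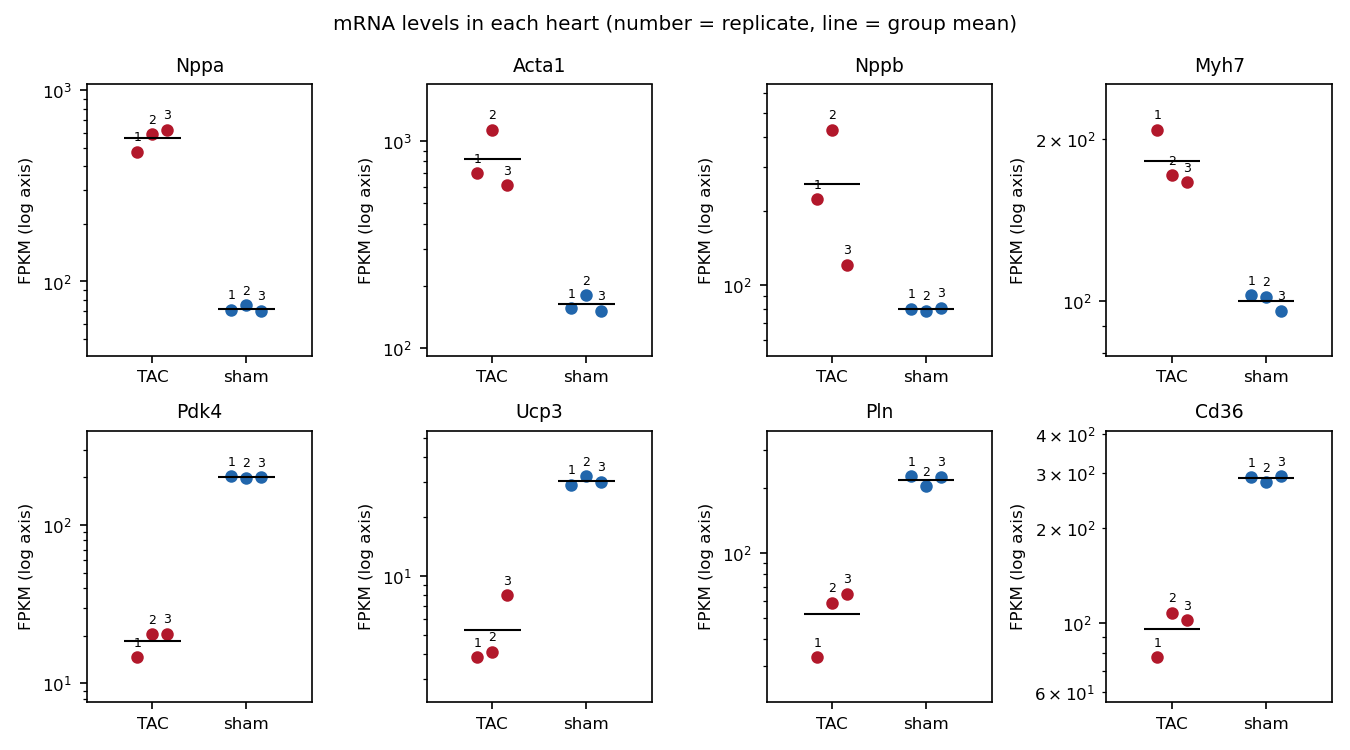
FPKM (log axis) of 8 mRNAs in each heart, TAC on the left and sham on the right, with the replicate number at each point and a line at the group mean. Nppa, Acta1, Nppb and Myh7 are higher in all 3 TAC hearts and Pdk4, Ucp3, Pln and Cd36 are lower in all 3, and TAC replicate 2 is highest for Acta1 and Nppb.

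Sarcomere genes moved in both directions. Of 26 tested, 13 rose and 7 fell, with 6 not called (median 0.41, 0.28 to 0.91 over the scalings). Thin and thick filament proteins were among those that rose. Tnni3, cardiac troponin I, was at 1976, 1186 and 1410 FPKM in the TAC group, against 648, 771 and 677 FPKM in the sham group, a log2 difference of 1.09 ± 0.20 (adjusted p = 9.47e-04). Csrp3, the muscle LIM protein of the Z-disc, was at 255, 319.6 and 218 FPKM in the TAC group, against 102, 121 and 99.3 FPKM in the sham group (1.28). Tnnt2, cardiac troponin T, was at 812, 567 and 680 FPKM in the TAC group, against 399.9, 436 and 402 FPKM in the sham group (0.72). Nebl and Ttn were among those that fell. Nebl, which encodes the Z-disc protein nebulette, was at 4.43, 5.91 and 9.93 FPKM in the TAC group, against 32.4, 28.6 and 32.5 FPKM in the sham group, a log2 difference of -2.11 ± 0.22 (adjusted p = 5.57e-05). Ttn, the giant spring of the sarcomere, fell by 1.08 on the log2 scale (adjusted p = 2.30e-04). Acta1 and Actc1 are close relatives in coding sequence, and the sources used here do not say how reads shared between them were assigned.

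Of 34 genes of calcium handling, ion channels and connexins, 4 rose and 16 fell, with 14 not called. Pln encodes phospholamban, the brake on the calcium pump of the sarcoplasmic reticulum. It was at 33.1, 58.9 and 65.01 FPKM in the TAC group, against 226, 203 and 225 FPKM in the sham group, a log2 difference of -2.09 ± 0.22 (adjusted p = 5.83e-05), and lay between -1.60 and -2.23 over the scalings. Atp2a2, the pump itself, did not pass, with 1442, 1395 and 1215 FPKM in the TAC group, against 1172, 1336 and 1186 FPKM in the sham group, and its TAC and sham hearts overlapped. Trdn, triadin of the calcium release complex, was at 5.97, 9.42 and 11.5 FPKM in the TAC group, against 28.6, 24.6 and 28.7 FPKM in the sham group (-1.54), and Ryr2, the release channel, fell by 0.67 on the log2 scale (adjusted p = 0.0015). Kcnj2, the inward rectifier potassium channel that sets the resting potential, was at 3.76, 3.75 and 6.35 FPKM in the TAC group, against 16.2, 15.2 and 15.3 FPKM in the sham group (-1.59). Jph2, which holds the reticulum to the T-tubule, went the other way with 245, 260.2 and 196 FPKM in the TAC group, against 83.9, 104 and 81.8 FPKM in the sham group (1.37, adjusted p = 7.67e-05). The list median was -0.31 as deposited, but 0.19 without Gm26917 and Gm42418, and -0.10 when TAC replicate 1 was left out. Pln, Trdn and Kcnj2 were lower under every scaling, while Ryr2 was not called lower without Gm26917 and Gm42418.

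Receptors for the hormones of pressure overload divided. Of 12 tested, 3 rose and 3 fell, with 6 not called (25.3% of all genes tested were higher and 37.7% lower). Adrb1, the beta-1 adrenergic receptor of cardiomyocytes, was at 13.4, 15.7 and 15.02 FPKM in the TAC group, against 8.01, 8.34 and 7.17 FPKM in the sham group (0.83 ± 0.12, adjusted p = 2.51e-04). Npr1, the receptor of both natriuretic peptides, rose by 0.64 (adjusted p = 0.0017). Corin, the protease that cuts pro-atrial natriuretic peptide, was at 21.2, 21.2 and 21.1 FPKM in the TAC group, against 37.4, 37.4 and 36.4 FPKM in the sham group (-0.78, adjusted p = 1.85e-04). Ednra, the type A endothelin receptor, was at 2.95, 4.89 and 3.51 FPKM in the TAC group, against 6.42, 7.05 and 6.29 FPKM in the sham group (-0.69). Without Gm26917 and Gm42418, Corin (-0.29, adjusted p = 0.053) and Ednra (-0.27, adjusted p = 0.13) no longer passed.

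Collagen genes rose together in TAC hearts. Of 52 extracellular matrix genes tested, 30 rose and 7 fell, with 15 not called, with a median of 0.63 (0.51 to 1.04 over the scalings), and 29 rose under all 4. Col1a1, a chain of type I collagen, was at 139, 114 and 103 FPKM in the TAC group, against 23.2, 29.2 and 23.6 FPKM in the sham group, a log2 difference of 2.18 ± 0.15 (adjusted p = 1.59e-05). Col3a1, type III collagen, was at 184, 139 and 137 FPKM in the TAC group, against 40.1, 48.4 and 38.1 FPKM in the sham group (1.83). The type I, III, IV, V and VI collagen chains on the list (Col1a1, Col1a2, Col3a1, Col4a1, Col4a2, Col5a1, Col5a2, Col6a1, Col6a2 and Col6a3) were all higher, by 0.82 to 2.18. Comp, a matrix protein that binds collagen, was low in sham hearts, with 7.04, 3.16 and 8.58 FPKM in the TAC group, against 0.638, 0.799 and 0.674 FPKM in the sham group (2.01). It was 1.29 against TAC replicate 2 alone. Serpinh1, the collagen chaperone, rose by 1.67, Timp1, an inhibitor of matrix proteases, by 1.25, and Eln, elastin, by 1.33. Among members that fell were proteoglycans and laminins. Lum, lumican, was at 5.26, 11.5 and 12.5 FPKM in the TAC group, against 22.6, 19.8 and 20.7 FPKM in the sham group (-1.11), and Dcn, decorin, and Lama2, a laminin chain, fell (-0.62 and -0.70 on the log2 scale). Only 2 of the 7 matrix genes that fell did so under all 4 scalings, and Lum was lower under each. Postn, periostin, and Fn1, fibronectin, did not pass (-0.21, adjusted p = 0.39, and 0.03, adjusted p = 0.85). Fibroblast markers did not move as 1 group: of 9, 4 rose and 2 fell, with 3 not called. Besides Col1a1, Gsn, the actin-severing protein gelsolin, was at 538, 446 and 623 FPKM in the TAC group, against 269, 335 and 267 FPKM in the sham group (0.88), while Pdgfra, a receptor that defines fibroblasts, had 6.25, 6.42 and 9.15 FPKM in the TAC group, against 8.29, 8.37 and 8.38 FPKM in the sham group, with overlapping groups. In whole heart tissue, fewer cells of a type and less RNA per cell cannot be told apart.

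Genes of TGF-beta, activin and BMP signalling moved in both directions. Of 23 tested, 6 rose and 6 fell, with 11 not called (25.3% of all genes tested were higher and 37.7% lower). Among ligands, Tgfb1 rose by 0.90 (adjusted p = 1.53e-04). The BMP receptors Bmpr1a and Bmpr2 fell. Bmpr1a was at 5.89, 8.45 and 7.80 FPKM in the TAC group, against 21.1, 18.9 and 21.3 FPKM in the sham group (-1.37), and Bmpr2 was at 6.35, 7.01 and 7.06 FPKM in the TAC group, against 14.5, 12.9 and 13.9 FPKM in the sham group (-0.92). Smad6, an inhibitory Smad, was at 12.2, 10.3 and 17.2 FPKM in the TAC group, against 3.21, 4.87 and 2.71 FPKM in the sham group, a log2 difference of 1.63 ± 0.21 (adjusted p = 1.33e-04).

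Antigen presentation genes and some interferon-stimulated genes were higher. Of 22 tested, 15 rose and 1 fell, with 6 not called (median 1.03, 0.92 to 1.44 over the scalings). Bst2, an antiviral membrane protein, was at 50.1, 41.2 and 70.3 FPKM in the TAC group, against 13.6, 17.9 and 14.5 FPKM in the sham group (1.72 ± 0.19, adjusted p = 6.66e-05). Isg15, a ubiquitin-like modifier, was at 17.6, 9.34 and 29.5 FPKM in the TAC group, against 6.18, 5.01 and 4.73 FPKM in the sham group (1.52 ± 0.31, adjusted p = 0.0016). H2-Eb1 and Cd74, of class II antigen presentation, were at 93.6, 82.1 and 103 and at 135, 145 and 176 FPKM in the TAC group, against 27.8, 34.6 and 25.7 and 41.9, 72.95 and 41.7 FPKM in the sham group. B2m, the light chain of class I molecules, was the member that fell, with 81.5, 129 and 205 FPKM in the TAC group, against 234, 217 and 233 FPKM in the sham group (-0.81, adjusted p = 0.021), and TAC replicate 3 lay close to the sham hearts. B2m was not called lower without Gm26917 and Gm42418. Ifit1 and Ifit3, interferon-induced genes, did not pass. Ifit3 had 22.5, 10.9 and 44.4 FPKM in the TAC group, against 14.2, 13.8 and 13.4 FPKM in the sham group, with TAC replicate 2 below all sham hearts and TAC replicate 3 far above.

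Markers of other cells in the tissue moved as well. Of 17 macrophage markers, 9 rose and 3 fell, with 5 not called, and their sum was 522 to 628 FPKM in the TAC group, against 302 to 334 FPKM in the sham group. Without C1qa, C1qb and C1qc, a step chosen after the data were seen, the sum was 176.5, 232.5 and 278.6 FPKM in the TAC group, against 181.2, 195.9 and 181.3 FPKM in the sham group, so the groups overlapped. The complement genes C1qa, C1qb and C1qc, which tissue macrophages make, rose by 1.30, 1.37 and 1.42. C1qc was at 81.5, 65.1 and 76.9 FPKM in the TAC group, against 26.2, 29.9 and 25.2 FPKM in the sham group. Cd163 and Mrc1, scavenger receptors of resident macrophages, fell (-0.46 and -0.57 on the log2 scale), and Adgre1, which encodes F4/80, had 4.80, 6.80 and 7.70 FPKM in the TAC group, against 6.21, 6.62 and 6.03 FPKM in the sham group, with overlapping groups. No macrophage marker was called lower without Gm26917 and Gm42418. All 6 red blood cell markers tested rose. Hba-a1 and Hba-a2, a pair of near-identical alpha globin genes whose reads may be split between them, were at 1575, 1459 and 1924 and 2316, 1913 and 2978 FPKM in the TAC group, against 249.9, 326 and 268 and 304, 357 and 298 FPKM in the sham group. The sources used here do not say whether the hearts were rinsed of blood. Of 15 endothelial markers, 5 rose and 8 fell, with 2 not called. Under all 4 scalings, 4 of those 5 rose, but only 1 of those 8 fell (Ptprb). Egfl7, a secreted endothelial factor, was at 35.7, 37.8 and 37.8 FPKM in the TAC group, against 15.3, 19.7 and 14.5 FPKM in the sham group (1.13), while Ptprb, a phosphatase of endothelial junctions, was at 13.3, 16.9 and 20.6 FPKM in the TAC group, against 31.8, 32.02 and 31.1 FPKM in the sham group (-0.88). Tek, the angiopoietin receptor, fell by 0.77 on the log2 scale, but did not pass without Gm26917 and Gm42418 (-0.29, adjusted p = 0.07). Of 8 smooth muscle and pericyte markers, 5 rose and 2 fell, with 1 not called. Rgs5, a pericyte marker, was at 52.8, 78.4 and 73.1 FPKM in the TAC group, against 186, 169 and 184 FPKM in the sham group (-1.40), whereas Tagln, transgelin of smooth muscle, and Notch3 rose by 0.76 and 0.63.

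Markers of atrium and fat were high in TAC replicates 1 and 3 and low in TAC replicate 2 and the sham hearts, while Msln and Upk3b of the mesothelium were above sham in all 3 TAC hearts. Myl7, the atrial myosin light chain, was at 79.8, 1.60 and 198 FPKM in the TAC group, against 1.07, 1.06 and 0.858 FPKM in the sham group. Summed atrium markers were 125, 4.56 and 301 FPKM in the TAC group, against 2.18 to 2.49 FPKM in the sham group, and Sln and Bmp10 were listed at 0 in TAC replicate 2. Summed fat markers were 10.4, 0.449 and 22.2 FPKM, against 0.606 to 0.802 FPKM in the sham group, and summed mesothelium markers were 10.2, 5.60 and 19.1 FPKM, against 2.04 to 2.42 FPKM. The mesothelial genes Msln and Upk3b were at 3.37, 2.21 and 6.12 and 2.96, 1.43 and 6.22 FPKM in the TAC group, against 0.183, 0.166 and 0.211 and 0.228, 0.133 and 0.182 FPKM in the sham group. Myl7 was the largest rise among the named genes (4.12 ± 1.19, adjusted p = 0.012), but it did not pass without TAC replicate 1 (3.51, adjusted p = 0.098) or without TAC replicate 3 (2.86, adjusted p = 0.063), and it was 0.39 without both. Dkk3, a secreted Wnt pathway modulator that is high in atrium, was at 11.1, 2.63 and 19.2 FPKM in the TAC group, against 0.899, 0.773 and 0.880 FPKM in the sham group. It was 2.38 with all hearts and 0.97 without TAC replicates 1 and 3. Nppa, which atrium also makes in quantity, was as high in TAC replicate 2 as in the other TAC hearts. With TAC replicates 1 and 3 left out, none of the 131 named genes changed direction. For genes whose groups do not overlap, this was fixed in advance. TAC replicate 2 then lies on the same side of every sham heart as the other TAC hearts. The count therefore does not show what part the atrial and fat mRNAs had. The fit with both left out holds 1 TAC heart and takes its spread from the sham hearts, which varied less than TAC hearts (median SD 0.081 against 0.189). Calls from it are therefore not given.

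Insulin-like growth factor genes moved in both directions. Of 13 tested, 5 rose and 6 fell, with 2 not called. Igf2, a growth factor of fetal tissue, was at 11.5, 6.94 and 13.1 FPKM in the TAC group, against 2.52, 3.98 and 1.59 FPKM in the sham group (1.65 ± 0.26, adjusted p = 3.62e-04). The binding proteins Igfbp4, Igfbp6 and Igfbp7 rose as well. Igfbp4 was at 59.3, 52.3 and 65.6 FPKM in the TAC group, against 15.6, 18.5 and 16.2 FPKM in the sham group (1.75), Igfbp6 was at 36.8, 33.1 and 39.7 FPKM in the TAC group, against 11.4, 12.6 and 9.94 FPKM in the sham group (1.61), and Igfbp7 rose by 1.11. The ligand Igf1 and the receptors and adaptors Igf1r, Igf2r, Insr, Irs1 and Irs2 were the 6 that fell (-0.38 to -0.78 on the log2 scale), and 2 of these 6 fell under every scaling. The list median was 0.30 with all hearts and -0.05 without TAC replicate 3.

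Kinases downstream of insulin and growth factors did not move as 1 group. Of 35 genes of PI3K, Akt, AMPK and mTOR signalling, 7 rose and 13 fell, with 15 not called (25.3% of all genes tested were higher and 37.7% lower). These counts do not set the list apart from other genes. Akt1, the Akt isoform most tied to growth, was at 77.6, 82.2 and 77.1 FPKM in the TAC group, against 37.9, 44.4 and 35.9 FPKM in the sham group (0.99 ± 0.12, adjusted p = 1.18e-04). Akt2, the insulin-responsive isoform, did not pass (0.01, adjusted p = 0.97). Prkaa2, the main catalytic subunit of AMPK in heart, was at 7.78, 12.6 and 12.3 FPKM in the TAC group, against 28.2, 25.4 and 27.9 FPKM in the sham group (-1.27), and Rps6kb1, the S6 kinase, was at 1.60, 2.37 and 2.91 FPKM in the TAC group, against 6.67, 6.15 and 6.98 FPKM in the sham group (-1.22).

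Of 22 genes of gp130 and Jak-STAT signalling, 7 rose and 6 fell, with 9 not called (25.3% of all genes tested were higher and 37.7% lower). Feedback inhibitors were among those that rose. Socs1 was at 3.21, 2.82 and 5.79 FPKM in the TAC group, against 0.405, 0.598 and 0.273 FPKM in the sham group (1.75 ± 0.20, adjusted p = 7.68e-05). Cish was at 4.24, 5.14 and 18.5 FPKM in the TAC group, against 2.25, 2.25 and 2.11 FPKM in the sham group (1.42), and was 0.83 without TAC replicate 3, the heart in which it was highest. The receptors Lifr and Osmr fell (-1.04 and -1.12 on the log2 scale), Il6st, which encodes gp130, did not pass (-0.14, adjusted p = 0.38), and Pias1, a SUMO ligase, was at 0.997, 1.71 and 2.17 FPKM in the TAC group, against 5.17, 4.70 and 5.27 FPKM in the sham group (-1.23).

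Among 36 cardiac transcription factors and nuclear receptors, 7 rose and 9 fell, with 20 not called (25.3% of all genes tested were higher and 37.7% lower). Nkx2-5, a homeobox factor of cardiomyocytes, was at 47.97, 55.4 and 54.4 FPKM in the TAC group, against 20.6, 25.5 and 18.9 FPKM in the sham group (1.25 ± 0.14, adjusted p = 6.76e-05). Srf, which drives actin and immediate early genes, was at 36.9, 38.8 and 34.97 FPKM in the TAC group, against 19.1, 21.8 and 19.5 FPKM in the sham group (0.84 ± 0.11, adjusted p = 1.84e-04). Gata4 rose by 0.74, whereas Mef2a and Mef2c fell (-0.96 and -0.95 on the log2 scale). Ppargc1a, the coactivator PGC-1 alpha that drives mitochondrial genes, was at 5.38, 8.30 and 10.2 FPKM in the TAC group, against 24.2, 20.9 and 23.4 FPKM in the sham group (-1.45 ± 0.19, adjusted p = 1.42e-04). Its partner receptors parted, with Esrra at 1.22 and Esrrg at -1.13. Hif1a, the hypoxia factor, was at 4.37, 9.27 and 9.32 FPKM in the TAC group, against 19.2, 17.6 and 18.3 FPKM in the sham group (-1.22), with TAC replicate 1 lowest.

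Immediate early genes moved in both directions. Of 21 tested, 8 rose and 6 fell, with 7 not called. Jund was at 155, 162 and 135 FPKM in the TAC group, against 42.6, 59.8 and 42.3 FPKM in the sham group (1.64 ± 0.16, adjusted p = 4.33e-05). Ier2 was at 28.3, 22.5 and 27.4 FPKM in the TAC group, against 7.85, 9.42 and 8.46 FPKM in the sham group (adjusted p = 3.23e-05 from limma), and Ier5 was at 34.7, 33.3 and 18.6 FPKM in the TAC group, against 8.36, 9.85 and 8.41 FPKM in the sham group (1.55), with TAC replicate 3 lowest of the TAC hearts. Fos did not pass (0.50, adjusted p = 0.091). Klf6 and Dusp1, which are also induced early, fell (-1.35 and -1.01 on the log2 scale).

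Clock genes were lower in TAC hearts for the most part. Of 18 tested, 3 rose and 12 fell, with 3 not called, with 8 lower under every scaling and a median of -0.47 (-0.60 to -0.00 over the scalings). Nr1d2, the repressor Rev-erb beta, was at 5.42, 7.25 and 9.16 FPKM in the TAC group, against 32.6, 29.1 and 31.8 FPKM in the sham group (-1.98 ± 0.16, adjusted p = 2.62e-05). Ciart, a repressor of Clock and Bmal1, was at 0.348, 0.572 and 0.592 FPKM in the TAC group, against 4.10, 4.56 and 3.88 FPKM in the sham group (-1.79 ± 0.12, adjusted p = 1.59e-05). Per2 was at 1.18, 1.37 and 1.67 FPKM in the TAC group, against 5.18, 5.43 and 4.94 FPKM in the sham group (-1.37), and Clock itself fell by 1.34 on the log2 scale. Cry1 and Cry2 did not pass (0.28, adjusted p = 0.057, and -0.18, adjusted p = 0.2), and Nfil3, a repressor at the sites that Dbp activates, rose by 0.89. The sources used here do not give the hour at which hearts were taken, and the part of time of day was not tested.

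Among the named nuclear genes the largest fall was in a gene of fuel selection. Pdk4 encodes the kinase that shuts off pyruvate dehydrogenase when fatty acids are burned. It was at 14.7, 20.4 and 20.6 FPKM in the TAC group, against 203, 199 and 200.1 FPKM in the sham group, a log2 difference of -3.38 ± 0.14 (adjusted p = 3.31e-06), and -2.89 to -3.51 over the scalings. Ucp3, a mitochondrial carrier that follows fatty acid use in muscle, was at 3.86, 4.12 and 7.995 FPKM in the TAC group, against 29.1, 32.1 and 30.1 FPKM in the sham group (-2.37 ± 0.21, adjusted p = 3.29e-05). Cd36, the fatty acid transporter of the cell surface, was at 77.6, 108 and 102 FPKM in the TAC group, against 291, 281 and 293 FPKM in the sham group (-1.60 ± 0.15, adjusted p = 4.00e-05). Of 29 genes of fatty acid uptake and oxidation, 4 rose and 16 fell, with 9 not called. The list median was -0.44 as deposited, 0.06 without Gm26917 and Gm42418, and -0.26 without TAC replicate 1. Fabp3, the fatty acid binding protein of heart, Lpl, the lipase of the vessel wall, and Acadm, a dehydrogenase of beta oxidation, fell (-0.89, -0.78 and -0.71 on the log2 scale). Cpt1b, the muscle isoform of the carnitine transferase, did not pass (-0.63, adjusted p = 0.051), and Acads and Etfb rose by 1.06 and 0.74. Only 5 of the 16 members that fell did so under all 4 scalings.

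Glycolysis leaned the other way. Of 25 genes of glucose uptake and glycolysis, 10 rose and 3 fell, with 12 not called (median 0.18, 0.05 to 0.68 over the scalings). Tpi1, triose phosphate isomerase, was at 125, 144 and 135 FPKM in the TAC group, against 80.4, 90.3 and 79.9 FPKM in the sham group (0.68 ± 0.12, adjusted p = 8.49e-04). Pkm and Pgam2 rose by 0.68 and 0.66. The glucose transporters Slc2a1 and Slc2a4 did not pass (0.07, adjusted p = 0.6, and -0.11, adjusted p = 0.57). The members that fell were Pdk1, another kinase of pyruvate dehydrogenase, at 6.71, 11.8 and 11.8 FPKM in the TAC group, against 22.4, 22.5 and 22.7 FPKM in the sham group, Pfkfb1, at 0.425, 0.590 and 1.13 FPKM in the TAC group, against 3.50, 2.91 and 2.82 FPKM in the sham group, and Slc16a1, a lactate carrier (-0.55).

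Of 31 genes of the TCA cycle, pyruvate entry and branched-chain and ketone use, 3 rose and 16 fell, with 12 not called. The median was -0.51 as deposited, -0.02 without Gm26917 and Gm42418, and -0.32 without TAC replicate 1. Dld, the dehydrogenase subunit shared by the pyruvate, oxoglutarate and branched-chain complexes, was at 29.6, 40.96 and 41.7 FPKM in the TAC group, against 94.2, 87.2 and 93.95 FPKM in the sham group (-1.29 ± 0.15, adjusted p = 8.14e-05). Idh3g, a subunit of isocitrate dehydrogenase, was at 16.7, 25.8 and 29.9 FPKM in the TAC group, against 59.2, 55.6 and 61.8 FPKM in the sham group (-1.29), while its partner Idh3b did not pass (0.10, adjusted p = 0.51). Dbt, a core of the branched-chain complex, was at 6.89, 9.25 and 8.81 FPKM in the TAC group, against 21.1, 18.4 and 20.95 FPKM in the sham group (-1.19). Mdh2, malate dehydrogenase, was the member that rose most (0.66, adjusted p = 0.0012).

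All 13 mitochondrial mRNAs were lower, by a median of -4.01 as deposited and of -3.50 to -3.84 under the 2 scalings in which they could be fitted. mt-Co1, a subunit of cytochrome oxidase, was at 2213, 4755 and 5845 FPKM in the TAC group, against 23517, 18782 and 24560 FPKM in the sham group (-2.49 ± 0.34, adjusted p = 1.79e-04). mt-Nd2, of complex I, was at 111, 265 and 524 FPKM in the TAC group, against 7948, 5736 and 8457 FPKM in the sham group (-4.87). mt-Atp6 was at 55.9, 129.8 and 219 FPKM in the TAC group, against 9615, 1570 and 10326 FPKM in the sham group (-5.51), with sham replicate 2 well below the other sham hearts. mt-Nd6, which is read from the other strand, fell least, with 279.8, 351 and 314 FPKM in the TAC group, against 964, 752 and 1025 FPKM in the sham group (-1.53). Of the 75 nuclear genes, 23 rose and 17 fell, with 35 not called, with a median of 0.02 (-0.12 to 0.52 over the scalings). Ndufa2, of complex I, and Atp5e, of ATP synthase, rose, at 368, 426 and 359.5 and 120.1, 138 and 126 FPKM in the TAC group, against 119, 158 and 119 and 39.5, 54.2 and 38.3 FPKM in the sham group. Uqcrb, of complex III, was at 70.4, 111 and 136 FPKM in the TAC group, against 329, 286 and 345 FPKM in the sham group (-1.63 ± 0.22, adjusted p = 1.55e-04). Across the libraries the share of the mitochondrial mRNAs was low where that of Gm26917 and Gm42418 was high, and the part of library preparation in either was not tested.

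Genes of the translation machinery were counted in 4 lists, and differences between the lists were not tested. Less the median of mRNAs of like genomic span (described below), their medians were -0.11 for cytosolic ribosomal proteins, -0.22 for initiation and elongation factors, -0.10 for synthetases and -0.20 for mitochondrial ribosomal proteins. Of 83 cytosolic ribosomal proteins, 33 rose and 8 fell, with 42 not called (median 0.21, 0.08 to 0.71 over the scalings, 0.10 without TAC replicate 3). Rps14 was at 163, 165 and 169 FPKM in the TAC group, against 57.7, 74.2 and 53.2 FPKM in the sham group (1.43) and Rpsa was at 151, 135 and 141 FPKM in the TAC group, against 63.5, 75.4 and 63.7 FPKM in the sham group (1.07). Rps27l, a paralogue of Rps27 and p53 target, was at 11.9, 21.3 and 21.9 FPKM in the TAC group, against 39, 39.7 and 42.2 FPKM in the sham group (-1.14). Of 62 initiation and elongation factors, 10 rose and 29 fell, with 23 not called. Their median was -0.22 as deposited, 0.22 without Gm26917 and Gm42418, and -0.10 without TAC replicate 1. Eif3e, a subunit of the factor that loads the small ribosomal subunit, was at 1.71, 3.54 and 3.89 FPKM in the TAC group, against 12.1, 10.4 and 11.9 FPKM in the sham group (-1.67 ± 0.20, adjusted p = 1.08e-04), and Eif3j1 was at 3.90, 4.55 and 4.90 FPKM in the TAC group, against 14.9, 12.7 and 14.9 FPKM in the sham group (-1.48). Of 21 aminoacyl-tRNA synthetases, 5 rose and 7 fell, with 9 not called (25.3% of all genes tested were higher and 37.7% lower). Vars and Yars, which charge valine and tyrosine, rose by 1.08 and 0.87, and Dars, which charges aspartate, was at 6.22, 8.51 and 8.23 FPKM in the TAC group, against 14.9, 14.4 and 14.8 FPKM in the sham group (-0.87). Of 77 genes with symbols of mitochondrial ribosomal proteins, 21 rose and 19 fell, with 37 not called. Mrpl42 was at 5.15, 10.02 and 11.8 FPKM in the TAC group, against 42.8, 32.7 and 42.3 FPKM in the sham group (-2.07) and Mrps36, counted here by its symbol only, was at 5.34, 9.81 and 10.4 FPKM in the TAC group, against 27.5, 21.4 and 27.3 FPKM in the sham group (-1.51), while Mrps26 rose to 17.1, 14.5 and 14.2 FPKM in the TAC group, against 5.04, 6.55 and 4.82 FPKM in the sham group.

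Protein quality genes moved in both directions. Of 32 chaperones and genes of the unfolded protein response, 8 rose and 13 fell, with 11 not called, which is close to the shares of all genes tested (25.3% higher, 37.7% lower). Chaperones of the endoplasmic reticulum were among those that fell. Dnajb9, a cochaperone of BiP, was at 2.37, 3.69 and 3.54 FPKM in the TAC group, against 16.7, 13.3 and 16.2 FPKM in the sham group (-1.97 ± 0.16, adjusted p = 2.56e-05). Hsp90b1, the reticulum Hsp90, was at 32.8, 35.5 and 38.2 FPKM in the TAC group, against 69.4, 69.3 and 72.1 FPKM in the sham group (-0.97). Hspa5, BiP itself, did not pass (-0.38, adjusted p = 0.26). The small heat shock proteins of muscle rose, with Hspb6 at 194, 166 and 135 FPKM in the TAC group, against 75.6, 83.8 and 74.5 FPKM in the sham group (1.06) and Hspb1, Hspb7 and Hspb8 at 0.72, 0.54 and 0.73 on the log2 scale. Of 37 proteasome subunits, 10 rose and 16 fell, with 11 not called, against the same shares of all genes tested. Psmb10, a subunit of the immunoproteasome, was at 35.1, 29.9 and 37.4 FPKM in the TAC group, against 11.2, 13.2 and 10.7 FPKM in the sham group (1.47), and Psmb8 and Psmb9, the other 2 of that kind, rose by 1.09 and 1.16. Psmc6, an ATPase of the regulatory cap, and Psma3, of the core, fell (-1.30 and -1.25 on the log2 scale). Of 31 antioxidant genes, 7 rose and 9 fell, with 15 not called, against the same shares of all genes tested. Nfe2l2, which encodes Nrf2, was at 6.57, 9.23 and 9.37 FPKM in the TAC group, against 20.95, 19.3 and 20.3 FPKM in the sham group (-1.19), its target Nqo1 was at 5.63, 11.6 and 7.72 FPKM in the TAC group, against 20.2, 20.2 and 20.6 FPKM in the sham group (-1.24), and Txnip, the thioredoxin inhibitor that follows glucose, was at 61.6, 76.96 and 63.04 FPKM in the TAC group, against 141, 158 and 136 FPKM in the sham group (-1.10).

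Histone genes mostly rose, and zinc finger genes mostly fell. Of 59 replication-dependent histone genes, 51 rose and 2 fell, with 6 not called, and 50 rose under every scaling. Hist1h3a was at 19.4, 20.4 and 17.6 FPKM in the TAC group, against 3.46, 3.54 and 4.44 FPKM in the sham group, a log2 difference of 2.07 ± 0.13 (adjusted p = 1.59e-05). Copies of histone genes are near-identical, so values of single copies are uncertain. Their mRNAs end without a poly(A) tail, and the sources used here do not give how RNA was selected. Genes of dividing cells did not move with them: of 17 cell cycle genes tested, 6 rose and 6 fell, with 5 not called. Cenpf, a kinetochore protein, was at 0.719, 0.481 and 1.43 FPKM in the TAC group, against 3.19, 3.04 and 3.22 FPKM in the sham group (-1.18), Mki67 fell by 0.52 on the log2 scale, and Ccnd3, a D-type cyclin, was at 3.14, 4.09 and 4.48 FPKM in the TAC group, against 2.14, 1.36 and 2.19 FPKM in the sham group (0.76). Cenpf was the only cell cycle gene called lower without Gm26917 and Gm42418. Cdkn1b, a cyclin kinase inhibitor, had 9.85, 3.04 and 3.25 FPKM in the TAC group, against 12.02, 11.3 and 7.32 FPKM in the sham group. Its groups overlapped, and its difference (-0.95, adjusted p = 0.029) did not pass with median-ratio scaling (-0.79, adjusted p = 0.13), without TAC replicate 2 (-0.70), without TAC replicate 3 (-0.73) or without sham replicate 2 (-0.87). Of 243 numbered zinc finger genes tested out of 297 listed, 36 rose and 145 fell, with 62 not called, and 99 fell under every scaling (median -0.54, -0.62 to -0.21 over the scalings). Zfp971 was at 1.04, 2.32 and 2.42 FPKM in the TAC group, against 12.4, 9.19 and 13.6 FPKM in the sham group (-2.14). Of 64 splicing factors, 9 rose and 30 fell, with 25 not called, with a median of -0.30 as deposited and 0.15 without Gm26917 and Gm42418. Qk and Rbfox1, splicing regulators of muscle, were at 18.04, 22.2 and 22.4 and 2.69, 3.29 and 5.24 FPKM in the TAC group, against 62.4, 54.1 and 62.3 and 14.1, 12.5 and 13.4 FPKM in the sham group.

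**Figure D3:**
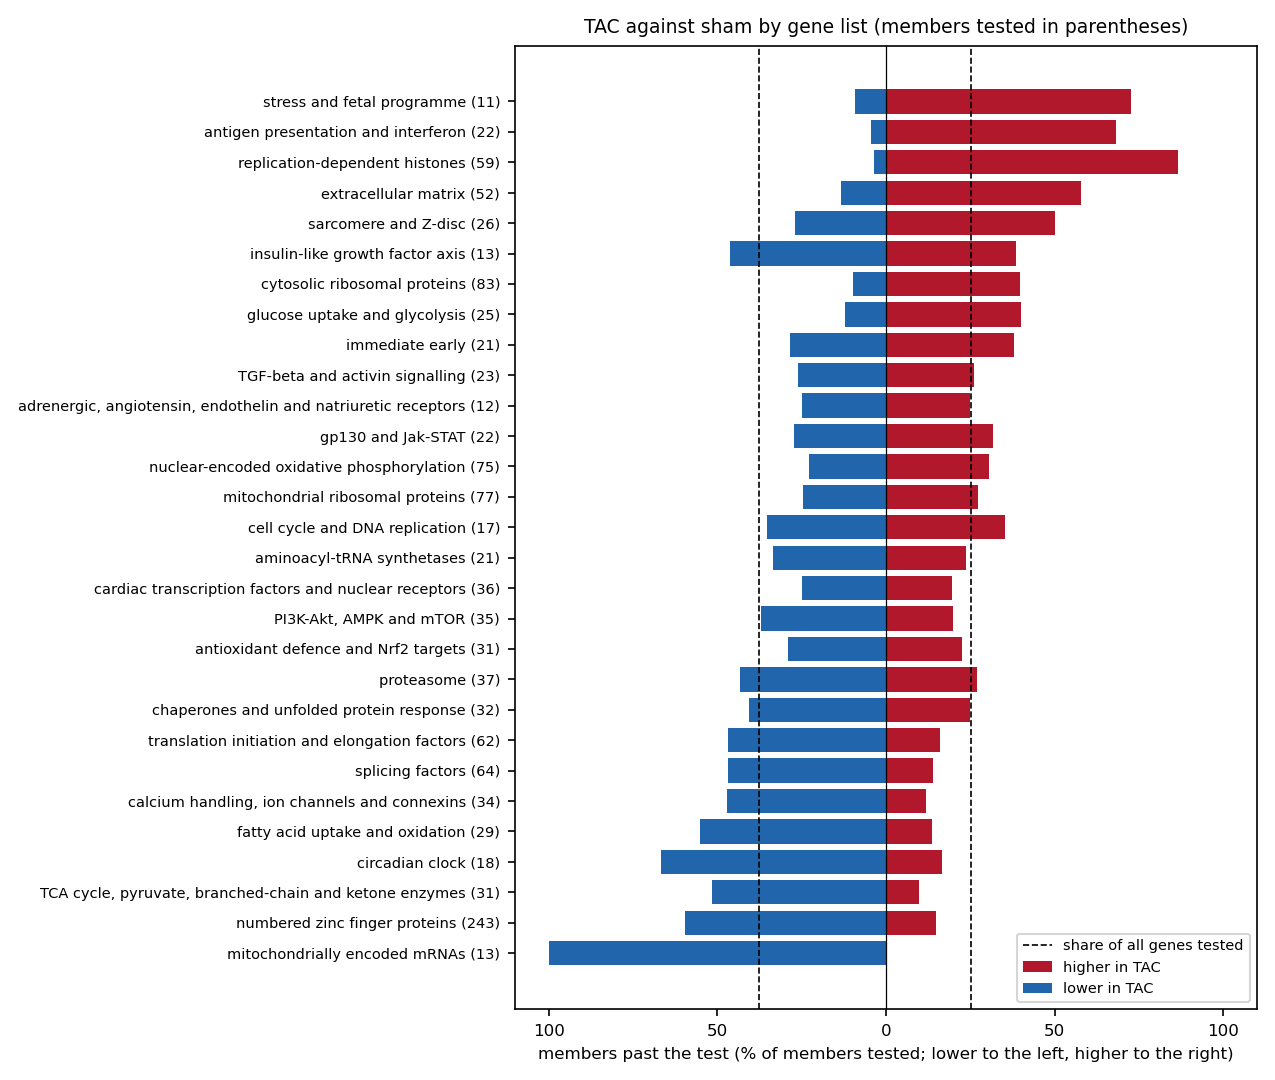
Share of each process list (% of members tested, number in parentheses, cell type markers not drawn) that was lower (left, blue) or higher (right, red) in TAC hearts, with dashed lines at the shares of all genes tested (37.7% lower, 25.3% higher). Histone, stress, antigen presentation and matrix genes lie furthest to the right among the lists drawn, and mitochondrial mRNAs, clock genes and numbered zinc finger genes furthest to the left.

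**Figure D4:**
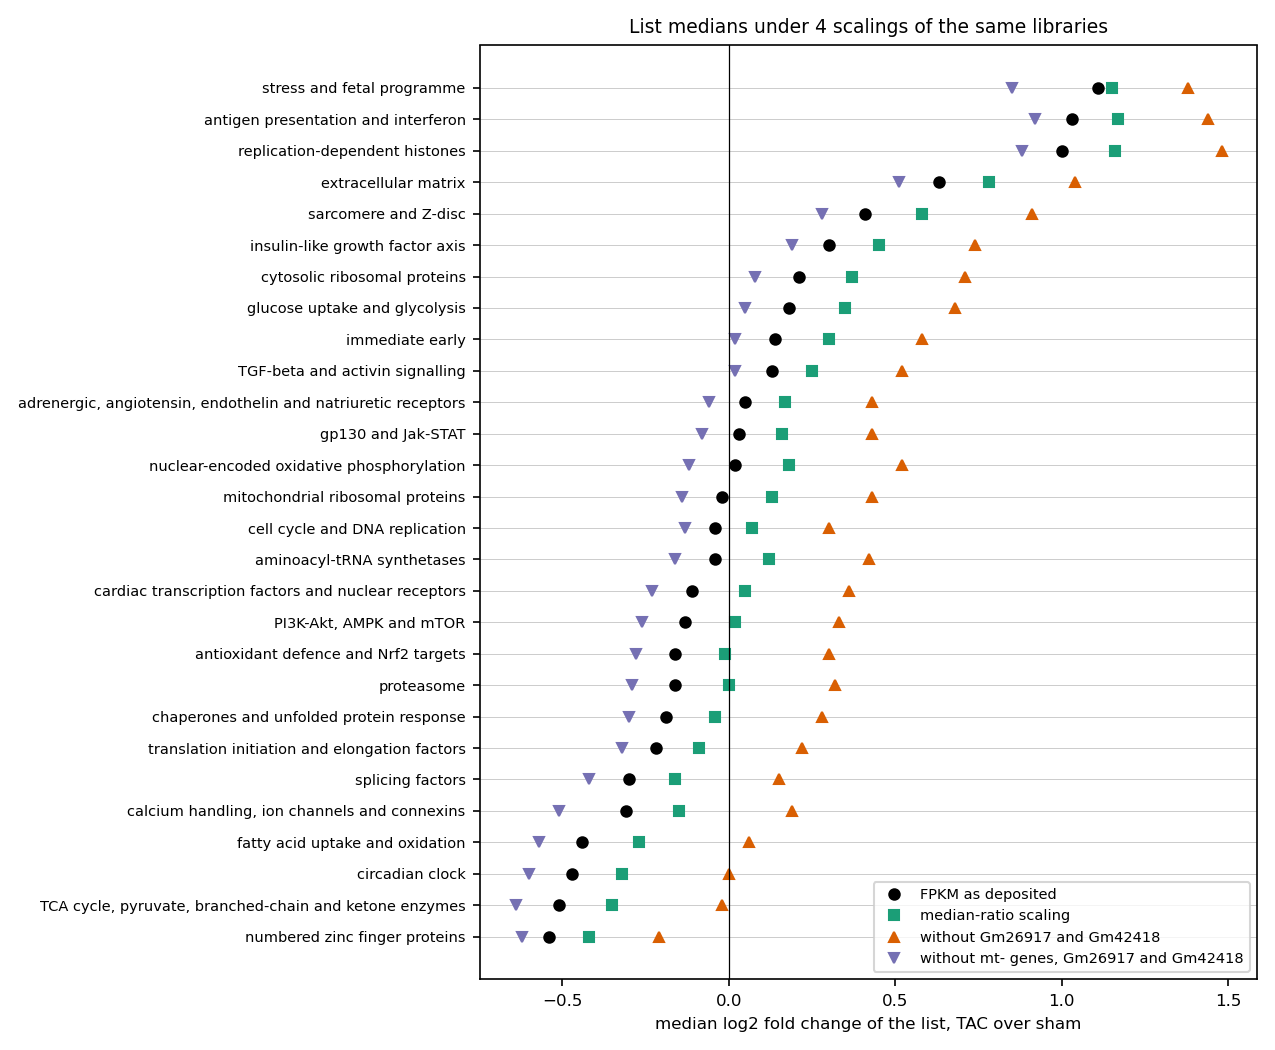
Median log2 difference (TAC over sham) of each nuclear gene list under 4 scalings of the same libraries, one symbol each, with a line at 0. Stress, antigen presentation, histone and matrix genes stay above 0 and zinc finger genes below 0 in all 4, while the medians of fatty acid oxidation (-0.57 to 0.06), calcium handling (-0.51 to 0.19) and splicing factors (-0.42 to 0.15) cross it.

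Other genes with large differences served several roles. Cited4, a transcriptional coregulator, was at 40.2, 51.7 and 39.3 FPKM in the TAC group, against 7.02, 8.37 and 7.49 FPKM in the sham group (2.37 ± 0.14, adjusted p = 1.59e-05). Nrtn, neurturin, a growth factor of neurons, was at 58.7, 43.9 and 49.1 FPKM in the TAC group, against 6.23, 11.9 and 6.27 FPKM in the sham group (2.54 ± 0.22, adjusted p = 2.97e-05). Among genes that fell, Tecrl, a reductase of the reticulum that is linked to inherited arrhythmia in humans, was at 1.94, 3.64 and 4.79 FPKM in the TAC group, against 24.1, 19.1 and 23.01 FPKM in the sham group (-2.42 ± 0.22, adjusted p = 3.59e-05). Ppp1r3a, which brings protein phosphatase 1 to glycogen, was at 4.92, 8.26 and 8.85 FPKM in the TAC group, against 43.8, 34.7 and 43.6 FPKM in the sham group (-2.35). Gpcpd1, a glycerophosphocholine phosphodiesterase, was at 3.54, 6.48 and 6.03 FPKM in the TAC group, against 29.1, 28.9 and 29.8 FPKM in the sham group (-2.29). Ogn, the small proteoglycan osteoglycin, was at 5.07, 8.35 and 12.01 FPKM in the TAC group, against 42.6, 34.1 and 43.8 FPKM in the sham group (-2.18), and Arhgap5, a GTPase-activating protein, was at 1.62, 2.66 and 3.06 FPKM in the TAC group, against 15.7, 12.5 and 14.3 FPKM in the sham group (-2.16). Groups that do not overlap were a condition for naming these genes.

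The direction of the differences went with the genomic span of the gene (first to last annotated base, introns included, from RefSeq GRCm38.p6 by symbol, for 10863 of the 10876 mRNAs tested). Among the quintile with the shortest spans (375 to 8131 bp), 47.1% of mRNAs were higher and 13.8% lower in TAC hearts. In the quintile with the longest spans (69948 to 2390387 bp), 9.39% were higher and 55.9% lower. The median span was 12025 bp for mRNAs that were higher, 39847 bp for those that were lower and 22889 bp for those that did not pass. Across genes, which are not independent, the Spearman correlation between log2 difference and span was -0.38. The order of the quintiles was the same under the other scalings. Lists were therefore also centred on the median of their quintile of span, a step chosen after the data were seen. The median was then 0.98 for stress genes, 0.73 for matrix genes, 0.79 for antigen presentation genes, 0.68 for histones, -0.69 for clock genes, -0.45 for zinc finger genes and -0.31 for fatty acid genes, but -0.01 for calcium handling, -0.07 for endothelial markers and -0.11 for cytosolic ribosomal proteins. Other lists lay on both sides, such as -0.41 for chaperones, -0.34 for splicing factors, -0.31 for antioxidant genes, 0.48 for sarcomere genes and 0.31 for glycolysis. What part RNA integrity or library preparation had in the relation with span was not tested.

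**Figure D5:**
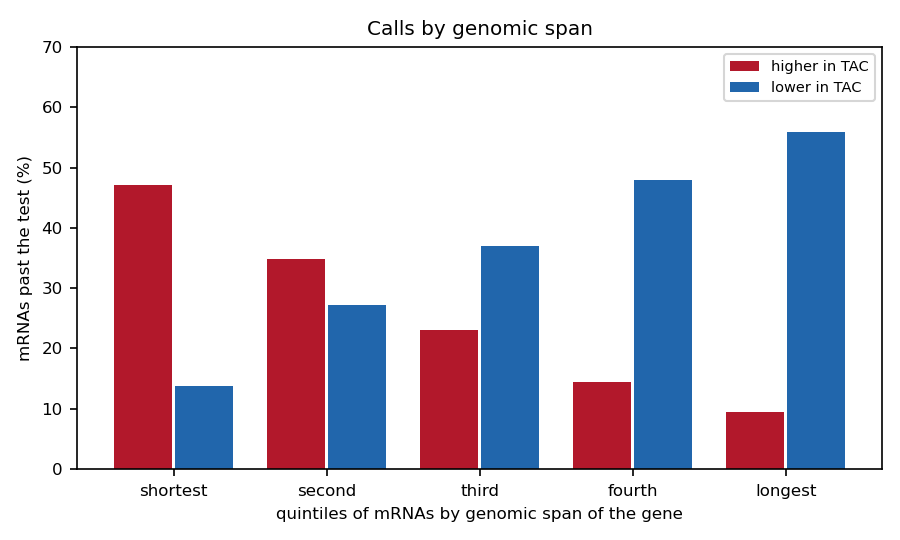
Share of mRNAs (%) that were higher (red) or lower (blue) in TAC hearts, in quintiles of mRNAs by genomic span from the shortest to the longest. From the shortest to the longest quintile the share higher drops (47.1%, 34.9%, 23.0%, 14.5% and 9.39%) and the share lower climbs (13.8%, 27.2%, 37.1%, 47.9% and 55.9%).

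TAC hearts varied more among themselves than sham hearts. The median SD of log2(FPKM + 1) was 0.189 among TAC hearts and 0.081 among sham hearts. Sham replicate 2 was the sham heart nearest to the TAC group for 68.7% of called mRNAs, and TAC replicate 3 was the TAC heart nearest to the sham group for 49.5%. Sham replicate 2 also had the lowest mitochondrial share of the sham hearts (31.6%) and the highest share of Gm26917 and Gm42418 (1.11%). Leaving it out gave 2659 higher and 3487 lower mRNAs.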

How the data were processed

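Total RNA of hearts from 3 TAC mice and 3 sham mice was sequenced in paired ends after KAPA stranded library preparation. Per the methods of the study, the authors trimmed adaptors, mapped reads by Hisat2 and took transcript levels from StringTie and Ballgown, and the submitters' processing notes name build mm9. The deposited gene table holds FPKM per library, for 13853 genes with a mean of at least 0.500 FPKM in 1 group or the other. The sources used here do not give the selection of RNA, the handling of reads shared by copies of a gene or the use of strand in counting, and paralogues and overlapping or antisense genes are therefore uncertain. The table also carries the authors' own fold changes and p-values, which were not used. Read counts could not be recovered (of 144 low genes, at most 3 shared 1 ratio between libraries), so the depth is unknown.

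Genes were typed by symbol with the RefSeq GRCm38.p6 gene table (12682 matched, 304 by synonym, 1171 unmatched), and the 13 mitochondrial mRNAs by name. Genes that reached 1 FPKM in 3 or more libraries were tested on log2(FPKM + 1) with limma 3.58.1 (eBayes with trend, R 4.3.3), two-sided, with Benjamini-Hochberg adjustment over all 11687 genes tested and a threshold of 0.05. A log2 difference on this scale understates the change of low genes. The fit was tested on simulated data. Alternatives were other pseudocounts (0.1 and 5), filters (none and 10 FPKM), no trend, the 3 scalings, a replicate block and each library left out. Leaving out TAC replicates 1 and 3 together, and centring on span, were chosen after seeing the data.

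Named genes were up to 3 called members of each list by size of change (at least 2 FPKM in the higher group), the 12 largest changes in each direction with non-overlapping groups that held under all scalings (at least 10 FPKM in the higher group; predicted genes and mitochondrial genes left out), genes the paper names (Srf, Akt1, Igf2, Igfbp4, Igfbp6, Myh7), and Gm26917, Gm42418 and the mitochondrial mRNAs. Other list members named for their role were chosen after their values were seen. A gene that the rule names is not reported here. Members and lists were chosen with earlier results of these data known. Summaries used Python 3.11.15, pandas 2.3.3, numpy 2.4.6 and scipy 1.17.1.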

Additional observations from a re-analysis of the deposited data

How the results depend on the processing

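The number of mRNAs that passed moved by over 1.5 times under 2 alternatives. With a filter at 10 FPKM, which leaves 3329 mRNAs, 1078 were higher and 1131 lower. Without Gm26917 and Gm42418, 5472 were higher and 2102 lower, against 2801 and 3961 as deposited. Leaving out 1 library at a time gave 2141 to 3301 higher and 3342 to 4438 lower mRNAs. No mRNA that passed on the values as deposited was called in the opposite direction in another setting. Between scalings, 139 mRNAs were called higher under 1 and lower under another. Replicate numbers did not pair the samples: deviations of same-numbered hearts correlated at -0.025, -0.003 and 0.057. The fit with a replicate block gave 2768 higher and 3963 lower mRNAs and changed no call among the 131 named genes. Its adjusted p for named genes such as Acta1, Cish and Cdkn1b lay far below that of the fit without a block. The block fit could therefore hardly remove a named call, and its unchanged calls are not taken as a sign of robustness. Named genes that lost their call in some setting were Cdkn1b, Corin, Ednra, Tek and Myl7, and none changed sign. Where groups do not overlap, leaving out a library cannot change the sign. Cdkn1b was -0.51 without Gm26917 and Gm42418. Other pseudocounts, no filter and no trend changed no named call. With 3 hearts a group and depth unknown, differences that did not pass are not shown to be absent.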

Other observations

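Genes of platelets and megakaryocytes, chosen after their values were seen, were higher in TAC hearts. Pf4, platelet factor 4, was at 49.9, 35.4 and 61.4 FPKM in the TAC group, against 15.7, 16.3 and 15.5 FPKM in the sham group (log2 difference 1.54, limma adjusted p = 8.35e-05). Itga2b, a chain of the platelet fibrinogen receptor, was at 6.81, 1.91 and 11.2 FPKM in the TAC group, against 0.424, 0.472 and 0.347 FPKM in the sham group (2.21, adjusted p = 8.10e-04). Nrgn, neurogranin, which platelets also hold, was at 25.3, 7.43 and 51.8 FPKM in the TAC group, against 1.98, 2.27 and 2.27 FPKM in the sham group. Tubb1, the beta tubulin of platelets, was at 15.3, 4.25 and 31.6 FPKM in the TAC group, against 1.04, 1.69 and 1.35 FPKM in the sham group. Of the 10 platelet genes looked at, 8 were tested and all 8 passed, a count that their choice may have set. In each of the 10 genes the order of the TAC hearts was replicate 3, then 1, then 2, which is also the order of Myl7 and of the summed atrium, fat and mesothelium markers.

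Some other genes also varied widely among TAC hearts. Gpx1, a glutathione peroxidase, was at 5.99, 13.2 and 80.0 FPKM in the TAC group, against 28.3, 36.1 and 27.7 FPKM in the sham group. Mrpl53, a mitochondrial ribosomal protein, was at 4.08, 37.2 and 7.33 FPKM in the TAC group, against 7.70, 19.9 and 7.86 FPKM in the sham group. Tomm5, of the mitochondrial import pore, was at 63.2, 12.1 and 66.5 FPKM in the TAC group, against 55.1, 57.8 and 58.5 FPKM in the sham group.

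Promoter base composition showed no such order as span. In quintiles of mRNAs by GC content of the promoter, from the lowest to the highest, 22.3%, 28.7%, 28.8%, 24.7% and 23.9% were higher in TAC hearts and 42.6%, 30.7%, 31.6%, 35.3% and 41.2% were lower, over the 8733 tested mRNAs (80.3%) with a promoter in the table.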
